A study of Homo sapiens with 6 samples.

Results

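Annexins are proteins that bind membranes carrying negatively charged phospholipids when calcium rises. The genes described here are the 10 rows of a Caco-2 expression table whose symbols are ANXA1, ANXA2, ANXA3, ANXA4, ANXA5, ANXA6, ANXA7, ANXA10, ANXA11 and ANXA13, out of 16781 genes in the table. Caco-2 is an established cell line that arose from a colon adenocarcinoma and forms enterocyte-like layers. Its mRNA was sequenced in 6 libraries, 3 of unmodified cells (WT) and 3 of cells in which Cas9 was used to knock out CBS, an enzyme that makes cysteine precursors and hydrogen sulfide (CBS KO). Knockout cells had also been infected with a lentivirus carrying Cas9, the guide and puromycin resistance and then selected with puromycin. No vector-only libraries were analysed here, so infection and selection cannot be told apart from the loss of CBS. The resistant cells were collected, and no single clone is named. All 6 libraries came from cells grown in the same high glucose medium with serum.

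Each annexin has a core of calcium-binding repeats, which docks onto phosphatidylserine and related lipids, and a variable N-terminal part that binds other proteins. ANXA2 pairs with S100A10 and ANXA1 with S100A11, both small calcium-binding proteins of the S100 family, and such complexes can bridge a pair of membranes. In epithelia annexins are known for work in vesicle traffic, exocytosis, resealing of torn plasma membrane and closure of wounds, and ANXA1 in addition as a secreted ligand of formyl peptide receptors.

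In CBS KO, ANXA1 and ANXA13 rose about as far as each other, 8.68-fold and 9.35-fold, from low levels. The far more abundant ANXA2 and ANXA3 rose 1.87-fold and 1.82-fold, and ANXA4 fell 1.38-fold. ANXA5, ANXA6, ANXA7 and ANXA11 differed by at most 1.12-fold, and ANXA10 was close to absent. Levels here are counts relative to the size of the library (CPM), with sizes scaled by edgeR's TMM method. Calls are adjusted p-values under 0.05 in edgeR's quasi-likelihood test over 13028 genes. Of the 9 annexins with enough counts to be tested, 5 were called higher and 2 lower. Of all genes tested, 38.4% were called higher and 38.9% lower, or 77.2% in either direction, so a call by itself does not set a gene apart in this comparison. The groups did not overlap in CPM for 8 of the 9 annexins tested, where 79.1% of all genes tested did not overlap. The median log2 fold change was 0.16 over the 9 annexins and -0.01 over all genes tested.

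**Figure D1:**
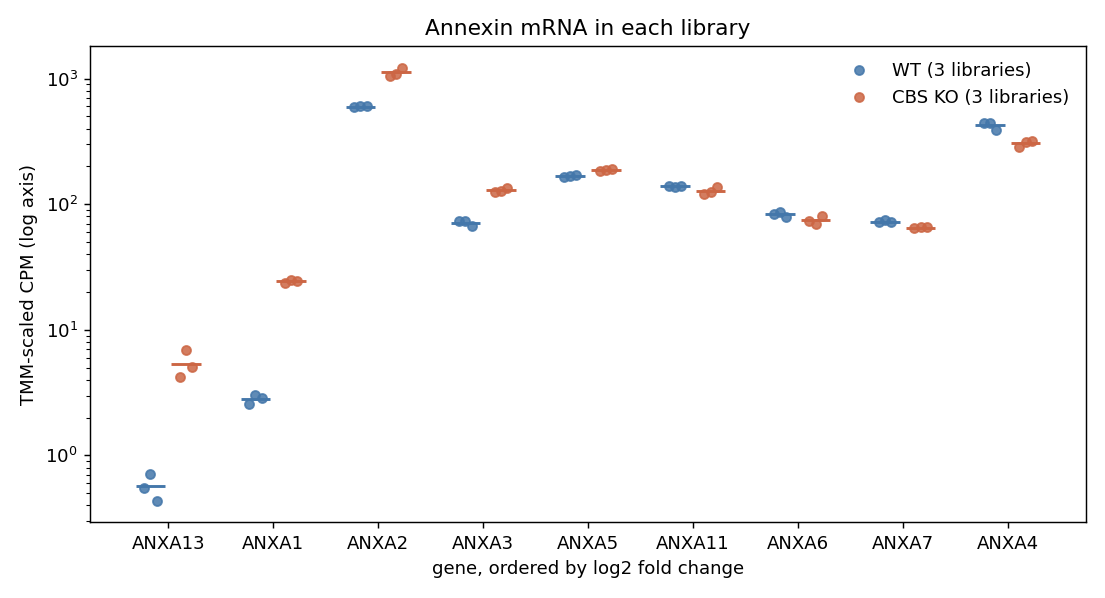
TMM-scaled CPM on a log axis for the 9 tested annexins in each of 3 WT and 3 CBS KO libraries, with points for libraries and bars for group means. ANXA13 and ANXA1 sit far higher in CBS KO, ANXA2 and ANXA3 are moderately higher, ANXA4 is lower, and ANXA6 is the one gene whose groups overlap.

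CBS itself, the targeted gene, averaged 50.8 ± 2.11 CPM in WT and 22.8 ± 3.81 in the knockout (SD, n = 3), a log2 fold change of -1.15 (SE 0.10, adjusted p = 1.18e-08). Library totals ran from 12805180 to 16176745 estimated counts, and were lower in each CBS KO library than in any WT library. Between 5.22 and 5.51% of the counts of a WT library, and between 7.78 and 8.85% of those of a CBS KO library, fell on its 10 most abundant genes. The median gene moved with the scaling chosen: its log2 fold change was -0.01 under TMM, -0.36 under plain library totals, -0.31 with log2(FPKM + 1) and -0.52 with log2(TPM + 1). Of the colon epithelial markers EPCAM, CDH1, KRT8, KRT18, KRT20, VIL1 and CDX2, all 7 were detected in both groups, 4 were called higher and 2 lower. KRT20 rose 5.54-fold and EPCAM 2.12-fold, while CDX2 fell 3.83-fold and VIL1 1.25-fold. With log2(TPM + 1) 2 of the 7 were called higher and 4 lower, next to 15.4% and 66.1% of all genes. With TMM these shares of all genes were 38.4% and 38.9%. Among 5 leukocyte markers in the table, 2 rose, LYZ and CD68, and the summed level of the list was 44.2 to 51.8 TPM in WT and 88.1 to 91.7 TPM in CBS KO, while PTPRC, the pan-leukocyte marker, had 0 counts in WT and 1 in CBS KO. Of 5 fibroblast markers 1 rose and 1 fell (67.6 to 76.6 TPM in WT and 40.3 to 46.9 in CBS KO), with COL1A2 at 1 count in WT and 0 in CBS KO, and of 4 endothelial markers both of the 2 tested were called lower (summed level 13.2 to 14.4 TPM in WT and 2.90 to 3.13 in CBS KO). The call of VWF (adjusted p = 0.0435) was narrow, and 1 endothelial marker in place of 2 was called lower with DESeq2 and without WT replicate 1 or CBS KO replicate 1, 2 or 3. CDH5, an endothelial marker that was not tested for want of counts, went the other way, with 3 counts in WT and 17 in CBS KO. Without a filter 1 endothelial marker was called higher and 2 lower. The summed levels are in TPM while the calls used TMM, and each sum rests largely on a single gene. CD68 went from 43.4 TPM in WT to 80.6 in CBS KO, COL1A1 from 65.1 to 39.9 and PECAM1 from 13.1 to 2.57 (means). With TMM, COL1A1 was not called (log2 fold change -0.12, edgeR adjusted p = 0.0897). The part of these markers in the annexin results was not tested. Whether replicate libraries stem from separate cultures is not said in the labels, so the p-values measure only the spread between them, which may be technical. In bulk RNA, fewer cells that express a gene and less RNA of it per cell cannot be told apart.

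The start sites of ANXA1, a strongly raised member, and of ANXA4, the member with the largest fall, lie in unlike sequence, shown here so that the contrast in base content can be seen. These are the 250 bases before the annotated start of ANXA1 (GRCh38.p14, chr9:73151615-73151864, + strand) and of the first of 2 listed starts of ANXA4 (chr2:69643558-69643807, + strand), from RefSeq, 5′ to 3′, with GC boxes (GGGCGG on either strand) in capitals.
ANXA1: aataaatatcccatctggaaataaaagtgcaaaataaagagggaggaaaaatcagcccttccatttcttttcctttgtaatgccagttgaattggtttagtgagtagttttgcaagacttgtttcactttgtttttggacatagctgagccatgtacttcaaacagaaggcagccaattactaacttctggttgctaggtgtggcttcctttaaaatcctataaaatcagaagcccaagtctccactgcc
ANXA4: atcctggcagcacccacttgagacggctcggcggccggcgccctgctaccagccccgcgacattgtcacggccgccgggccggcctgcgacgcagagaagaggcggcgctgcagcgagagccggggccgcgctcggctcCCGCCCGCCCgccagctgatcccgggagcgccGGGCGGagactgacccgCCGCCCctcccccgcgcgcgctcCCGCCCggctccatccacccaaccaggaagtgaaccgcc
The ANXA1 stretch is 38.4% G or C and holds 0 CpG dinucleotides, and the ANXA4 stretch is 77.2% G or C with 36. The medians over 35116 promoters of the same length were 58.0% and 11. Promoters were listed for 9 of the 10 annexins, with 13 starts in all and none for ANXA13. ANXA10, the annexin next to absent from these cells, was the other one with 0 CpG dinucleotides (31.2% G or C). The contrast does not extend to all raised members. ANXA2, which rose, had 78.0% G or C with 28 CpG dinucleotides, and ANXA3, which also rose, had 64.0% with 18. ANXA5, which moved little, had 78.8% with 31.

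Motifs were searched on both strands of the same 250 bases. A GC box, which SP and KLF factors can bind, occurred before 7 of the 13 annexin starts and 42.6% of all promoters. It occurred 5 times before the ANXA4 start shown above, where the first pair overlap. Before ANXA2 it occurred 3 times, and there neighbouring matches share a base. The AP-1 motif TGANTCA occurred at 1 of the 13 starts, that of ANXA2, as TGAGTCA from 127 to 121 bases before the start (-127 to -121), and in 6.57% of all promoters. The heat shock unit GAANNTTC and the STAT motif TTCNNNGAA were found at 0 of the 13 starts and in 5.78% and 6.57% of all promoters. No match shows only that these letters are not in this window, and which start these cells use is not known.

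ANXA1, which binds S100A11 and can leave the cell to act on formyl peptide receptors, yielded 47, 55 and 52 counts from WT replicates 1, 2 and 3 and 290, 286 and 302 from CBS KO replicates 1, 2 and 3. In CPM these were 2.58, 3.02 and 2.84 in WT and 23.8, 25.1 and 24.6 in CBS KO. Each CBS KO library was far above each WT library, and the libraries of a group lay close together. The means were 2.81 ± 0.219 and 24.5 ± 0.683 CPM (SD, n = 3 in each), with a log2 fold change of 3.12 (SE 0.11, adjusted p = 3.13e-13). The gene (Entrez 301) lies on chromosome 9 from 73151865 to 73170393 in GRCh38. Without any 1 library the log2 fold change lay between 3.05 and 3.16. It was 2.41 on the log2(FPKM + 1) scale and 2.31 on the log2(TPM + 1) scale, or 2.72 and 2.83 relative to the median gene of each. The added 1 makes such values understate changes of low genes.

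ANXA13, the intestine-enriched annexin found at apical membranes of enterocytes, was the rarer of these strongly raised genes. It had 10, 13 and 8 counts in the WT libraries and 51, 79 and 62 in the CBS KO libraries, or 0.549, 0.713 and 0.437 CPM against 4.18, 6.94 and 5.04. The groups did not overlap, but CBS KO replicate 2 stood above the other CBS KO libraries. The mean went from 0.567 ± 0.139 to 5.39 ± 1.41 CPM (SD, n = 3 in each; log2 fold change 3.22, SE 0.27, adjusted p = 9.98e-09). The gene (Entrez 312) lies on chromosome 8 from 123680794 to 123737393. On log2(FPKM + 1) and log2(TPM + 1) its log2 fold change was 1.65 and 1.76. A filter at a mean of 5 CPM leaves it untested.

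ANXA2, a partner of S100A10 that also binds actin and surface proteases, was the most abundant annexin in every library. It stood at 592, 605 and 602 CPM in the WT libraries and at 1049, 1089.8 and 1224 in the CBS KO libraries. All CBS KO libraries exceeded all WT libraries, and CBS KO replicate 3 was the highest. The means were 599 ± 6.84 and 1121 ± 92.0 CPM (SD, n = 3 in each; log2 fold change 0.90, SE 0.07, adjusted p = 3.63e-09), and the log2 fold change was 0.36 on the log2(TPM + 1) scale, still called higher. ANXA2 (Entrez 302) lies on chromosome 15 from 60347151 to 60397986. Of the 1577 windows of 100 bases in its longest coding transcript in GENCODE 29, 287 (18.2%) also occur in the processed copy ANXA2P2, and how the authors placed such reads is not given in the sources used here. The other 9 annexins shared 0 windows with any other gene.

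ANXA3, an annexin of vesicles and secretory granules, was at 73.2, 73.1 and 66.9 CPM in WT, against 125, 129 and 134 in the knockout. These groups did not overlap either. The mean rose from 71.1 ± 3.63 to 129 ± 4.54 CPM (SD, n = 3 in each; log2 fold change 0.86, SE 0.06, adjusted p = 2.12e-09), with 0.27 on the log2(TPM + 1) scale, also called higher. ANXA3 (Entrez 306) lies on chromosome 4 from 78551770 to 78610447.

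ANXA4, an annexin of epithelial secretory membranes, had the largest fall of the 9 tested members. Its libraries were at 444, 439.8 and 388 CPM across WT and 287, 315 and 321 across CBS KO. WT replicate 3 was nearest to the knockout libraries without reaching them. The mean fell from 424 ± 31.2 to 307 ± 17.9 CPM (SD, n = 3 in each; log2 fold change -0.46, SE 0.07, adjusted p = 8.52e-06), and the log2 fold change came to -0.82 on library totals and -1.04 with log2(TPM + 1). The gene (Entrez 307) lies on chromosome 2 from 69643808 to 69827112, and its annotated span overlaps the genes AAK1 and AC092431.1 on the opposite strand. The library protocol marks strand, but whether counting used it is not given in the sources used here.

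The other members with adequate counts moved little. ANXA5, the classic phosphatidylserine-binding annexin used to stain dying cells, was at 164, 168 and 169.9 CPM in the WT libraries and at 184, 188 and 189.7 in the CBS KO libraries. Its groups were apart but close, with a log2 fold change of 0.16 (SE 0.05, adjusted p = 0.0104), and the call was lost without WT replicate 1 (adjusted p = 0.0586). That direction has no settled sign: the log2 fold change of ANXA5 was -0.19 with the library total, -0.19 with log2(FPKM + 1) and -0.42 with log2(TPM + 1), each called lower.

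ANXA7, which binds the penta-EF-hand proteins sorcin and ALG-2 and aids membrane fusion, measured 71.9, 74.3 and 72.2 CPM in WT against 64.9, 65.5 and 65.3 in the knockout, without overlap. Its span overlaps the antisense gene AL512656.1. Its change on the log2 scale was -0.16 (SE 0.06, edgeR adjusted p = 0.0270), and the call was lost without WT replicate 2 (adjusted p = 0.0943), without CBS KO replicate 2 (adjusted p = 0.0601) and with DESeq2 (adjusted p = 0.0759). ANXA11, which binds ALG-2 and S100A6 and tethers RNA granules to lysosomes, measured 139, 138 and 139 CPM in WT against 122, 125 and 137 in the knockout. CBS KO replicate 3 lay just under the WT libraries, and the gene did not pass (log2 fold change -0.12, SE 0.06, adjusted p = 0.0833), although it did without that library (adjusted p = 0.00302).

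ANXA6, a double-length annexin of endosomes and the plasma membrane, was at 83.7, 86.7 and 79.8 CPM in WT, against 74.0, 69.2 and 81.2 in the knockout. CBS KO replicate 3 lay within the WT range, and the gene did not pass (log2 fold change -0.16, SE 0.07, adjusted p = 0.0523). Leaving out WT replicate 3 gave an adjusted p of 0.0470 and leaving out CBS KO replicate 3 one of 0.00122, both as lower. With the library total, ANXA6, ANXA7 and ANXA11 all passed as lower, at log2 fold changes of -0.51, -0.51 and -0.47, which was -0.15, -0.15 and -0.11 relative to the median gene of that scaling.

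ANXA10, an annexin of gastric epithelium, was the member that did not reach the count minimum. It had 1 count in WT replicate 2, 1 in CBS KO replicate 2 and 0 in the other 4 libraries, and the limit that a count of 0 sets lies between 0.164 and 0.264 CPM in these libraries. No difference was detectable at this depth. ANXA10 lies on chromosome 4 from 168092537 to 168187736, ANXA5 on chromosome 4 from 121667946 to 121696980, and ANXA6 on chromosome 5 from 151100706 to 151157779. ANXA7 and ANXA11 both lie on chromosome 10, from 73375101 to 73414058 and from 80150889 to 80205808.

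**Figure D2:**
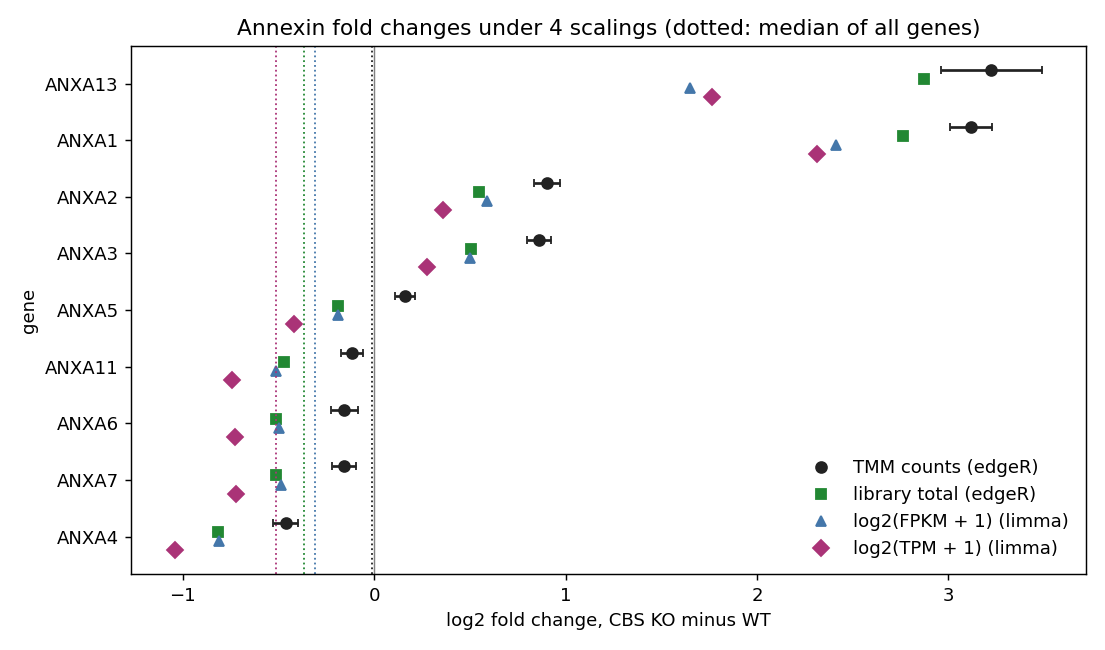
Log2 fold change (CBS KO minus WT) of the 9 tested annexins under 4 scalings, with bars for the SE of the TMM fit and dotted lines for the median of all genes in each. ANXA1, ANXA13, ANXA2 and ANXA3 lie above 0 and ANXA4 below 0 under all 4, whereas ANXA5 is above 0 with TMM alone of the 4.

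Set side by side per length, on the TPM scale, the annexins of WT cells ran from ANXA2 at 878 ± 10.1 TPM through ANXA4 at 333 ± 24.3, ANXA5 at 232 ± 4.42, ANXA3 at 116 ± 5.93, ANXA11 at 90.7 ± 1.31, ANXA7 at 67.2 ± 0.792 and ANXA6 at 59.9 ± 2.46 to ANXA1 at 4.73 ± 0.368 and ANXA13 at 0.83 ± 0.195 TPM (SD, n = 3). No neighbours in this order overlapped across WT libraries. In CBS KO the order was the same except that ANXA5, at 173 ± 9.71 TPM, came above ANXA4, at 161 ± 4.59 TPM. The ranges of these 2 overlapped between libraries (162.56 to 181.69 and 156.61 to 165.7 TPM), so their order is not settled, while all other neighbours in CBS KO stayed apart. ANXA1 reached 27.5 ± 1.71 TPM there, just below ANXA6 at 35.8 ± 2.24 TPM. ANXA13 reached 5.28 ± 1.38 TPM.

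The summed TPM of the 10 annexins overlapped between the groups (exact two-sided permutation p = 0.5). It ran from 1751 to 1810.1 TPM in WT and from 1736 to 1792 TPM in CBS KO. The annexin share of library counts overlapped too, at 0.172 to 0.180% and 0.175 to 0.188%. The summed FPKM did not overlap, at 1069 to 1109 in WT and 1242 to 1310 in CBS KO. Whether the sum changed thus depends on the scaling, and the median gene fell by 0.52 with log2(TPM + 1). Within the TPM sum the make-up differed, and a share within a library does not depend on how libraries are scaled. ANXA2 made up 48.6, 49.0 and 50.2% of annexin TPM in WT and 63.4, 63.0 and 65.2% in CBS KO. ANXA4 made up 18.7 ± 1.12% in WT and 9.12 ± 0.367% in CBS KO, and ANXA5 13.0 ± 0.383% and 9.81 ± 0.51% (SD, n = 3 in each). ANXA1 went from 0.265 ± 0.0195% to 1.56 ± 0.0972% and ANXA3 from 6.52 ± 0.245% to 7.98 ± 0.265%. ANXA6, ANXA7 and ANXA11 each took a smaller share in every CBS KO library than in any WT library, with means of 2.03, 2.29 and 3.05% against 3.36, 3.77 and 5.10%. None of these shares overlapped between groups, and each gave an exact permutation p of 0.1, the smallest that 3 against 3 libraries allow. In CPM, 79.1% of all genes tested did not overlap. The shares of a library add up to the whole, so a larger ANXA2 share leaves less for the rest, and they are not separate results. The share of ANXA5 fell although its CPM rose 1.12-fold with TMM, and ANXA6 and ANXA11 were not called with TMM.

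**Figure D3:**
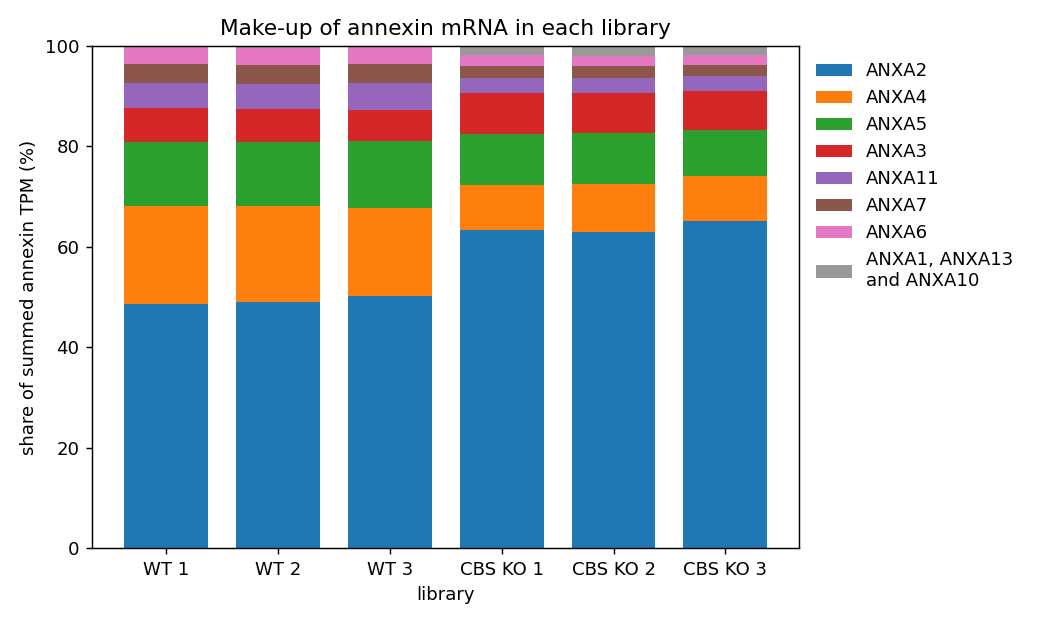
Share of the summed annexin TPM (%) taken by each annexin in each library, as stacked bars. ANXA2 takes 48.6 to 50.2% in WT and 63.0 to 65.2% in CBS KO, and the ANXA4 band narrows from a mean of 18.7 to 9.12%.

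With TMM all 5 S100 partners measured, of the 6 listed, were called higher in CBS KO, next to 38.4% of all genes tested. Their median log2 fold change was 0.69, against -0.01 over all genes. With log2(TPM + 1) 2 were called higher and 1 lower, next to 15.4% and 66.1% of all genes. The median there was 0.09, or 0.61 above that of all genes. S100A6, which binds ANXA11 and ANXA2, rose furthest, from 22.7, 20.5 and 23.3 CPM in WT to 100.2, 117 and 140.0 CPM in the knockout (log2 fold change 2.43, SE 0.11, adjusted p = 5.66e-11). S100A1 rose 2.21-fold and S100A4 1.61-fold. The call of S100A4 was lost with the library total (edgeR adjusted p = 0.12). It was also lost with log2(FPKM + 1) (limma adjusted p = 0.0561), log2(FPKM + 0.1) (0.0599) and log2(TPM + 1) (0.530).

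S100A10, the partner of ANXA2, was at 722, 691 and 709.8 CPM across WT and at 968, 1073 and 1098 across CBS KO. Its rise of 1.48-fold (log2 fold change 0.56, SE 0.07, adjusted p = 7.22e-07) turned to a log2 fold change of -0.020 with log2(TPM + 1) (adjusted p = 0.664). S100A11, the partner of ANXA1, was at 47.2, 51.2 and 49.4 CPM in the WT libraries and at 56.7, 62.8 and 71.5 in the CBS KO libraries. Its 1.29-fold rise (log2 fold change 0.37, SE 0.08, adjusted p = 0.000543) was lost with the library total (log2 fold change 0.01) and turned to -0.22 with log2(TPM + 1).

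Ratios of TPM within a library are free of that dependence. The ratio of ANXA2 to S100A10 was 0.24, 0.256 and 0.249 in WT and 0.321, 0.304 and 0.347 in CBS KO, so S100A10 mRNA remained the more abundant per length in every library. The ratio of ANXA1 to S100A11 was 0.0131, 0.014 and 0.0138 in WT and 0.0961, 0.0954 and 0.0852 in CBS KO. Among members, ANXA2 stood 2.65 ± 0.211 times above ANXA4 in WT and 7.01 ± 0.375 times in CBS KO, 3.79 ± 0.0443 and 6.52 ± 0.469 times above ANXA5, and 186 ± 12.5 and 41.2 ± 3.42 times above ANXA1 (SD, n = 3 in each). All 5 ratios compared were apart between groups, where 79.1% of all genes tested did not overlap in CPM. Each gave an exact permutation p of 0.1, the smallest possible here, which stayed 0.1 after adjustment over the 5. The ratios are built from the levels of genes described above, so they are not separate results.

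**Figure D4:**
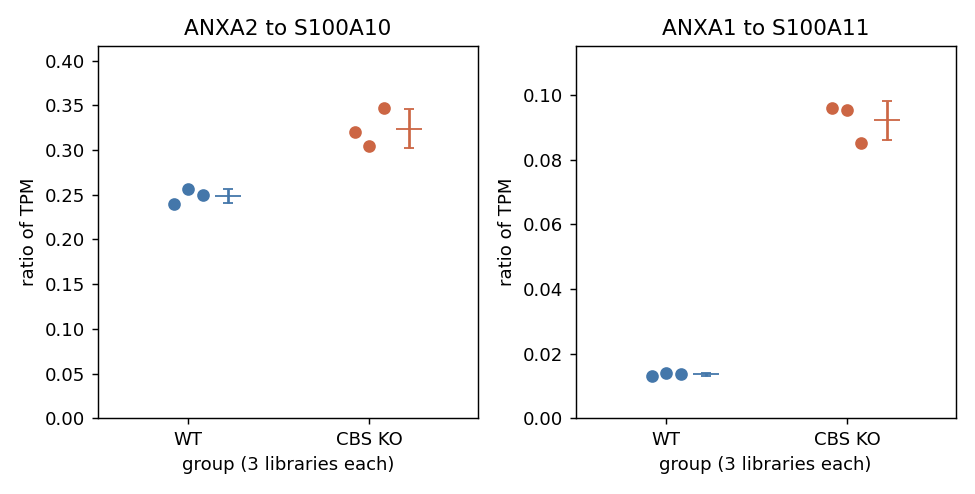
Ratio of TPM within each library for ANXA2 to S100A10 and for ANXA1 to S100A11, with 3 points per group and the mean ± SD beside them. The CBS KO libraries lie above the WT libraries in both panels, at 0.304 to 0.347 against 0.24 to 0.256 and at 0.0852 to 0.0961 against 0.0131 to 0.014.

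Outside the list of 10, the table held 4 further genes with annexin in their name. Of these, 3 were called lower in CBS KO and 1 higher, next to 38.9% and 38.4% of all genes tested. The lower ones include the copies ANXA8 and ANXA8L1, which cannot be read as independent. ANXA9, an annexin whose repeats have lost calcium-binding residues, was at 73.8, 72.6 and 65.5 CPM in WT, against 36.4, 39.5 and 44.4 in the knockout (log2 fold change -0.82, SE 0.08, adjusted p = 9.09e-08). ANXA8 fell 4.73-fold and ANXA8L1 10.3-fold, with 175 and 83 counts in WT and 24 and 5 in CBS KO. However, 69.3% of the windows of ANXA8 also occur in ANXA8L1 or AC244230.1, so reads of one of these genes can be counted for another. The size of the ANXA8L1 change hung on single libraries, with a log2 fold change of -3.37 in all, -2.81 without CBS KO replicate 1 and -4.09 without CBS KO replicate 2. Summed, the copies went from 4.45, 5.27 and 4.42 CPM to 0.246, 1.23 and 0.976 CPM, a 5.77-fold fall in means. ANXA2R, a putative ANXA2 receptor, rose 1.54-fold (adjusted p = 0.0057) and was not called with the library total (adjusted p = 0.181).

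Genes of the processes in which annexins act were taken from 5 lists, and differences between the lists were not tested. Their counts stand against 38.4% of all genes called higher and 38.9% lower with TMM, and against 15.4% higher and 66.1% lower with log2(TPM + 1), where the median of all genes was -0.52. For surface plasminogen activation, to which the complex of ANXA2 and S100A10 is known to contribute by binding plasminogen, 7 of 8 tested genes rose and 0 fell (median log2 fold change 1.09). With log2(TPM + 1), 5 were called higher and 2 lower, with a median of 0.34. The urokinase receptor PLAUR rose 23.0-fold and the protease inhibitor SERPINE2 13.1-fold, the last going from 12 counts over the WT libraries to 107 over the CBS KO libraries.

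Membrane repair genes, among them ferlins, caveolins and the ESCRT-III complex that closes membrane wounds, were called higher for 12 of 21 and lower for 5 (median 0.30), but with log2(TPM + 1) 6 were called higher and 10 lower (median -0.25), a fall in the higher calls that all genes also showed. The caveolae proteins CAV1 and CAV2 rose 3.22-fold and 2.42-fold and the ESCRT-III subunit CHMP2B 2.78-fold. CHMP6, another subunit, fell 2.71-fold, the endosomal ATPase EHD1 1.78-fold and the ESCRT-III recycling ATPase VPS4B 1.65-fold.

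Among the 7 penta-EF-hand proteins and calpains, 1 rose and 2 fell (median -0.09), and with log2(TPM + 1) 0 were called higher and 6 lower (median -0.66), next to 66.1% of all genes lower. PDCD6, which encodes ALG-2, the partner of ANXA7 and ANXA11, fell 1.53-fold from 40.0 ± 0.359 to 26.1 ± 2.96 CPM. The calpain subunit CAPN1 fell 1.95-fold, while CAPN2 rose 1.52-fold and had a log2 fold change of 0.02 with log2(TPM + 1) (adjusted p = 0.77). SRI, which encodes sorcin and was named after its value was seen, averaged 43.6 ± 2.19 CPM in WT against 48.9 ± 4.43 in the knockout (SD, n = 3; not called, edgeR adjusted p = 0.0604).

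Around ANXA1, 4 of 10 tested genes rose and 3 fell (median 0.19, and -0.41 with log2(TPM + 1), where 2 were called higher and 7 lower), shares near those of all genes under both scalings. Its formyl peptide receptors were close to absent: FPR1 had 1 count in each group and FPR2 1 count in WT and 0 in CBS KO. PTGS2, the inducible prostaglandin synthase, rose 9.52-fold, and NR3C1, the glucocorticoid receptor, 2.01-fold from 40.3 ± 1.62 to 81.1 ± 8.74 CPM. ADAM10, a sheddase, rose 1.26-fold with TMM and had a log2 fold change of -0.014 with the library total and of -0.23 with log2(TPM + 1). FKBP5, a glucocorticoid-induced gene, fell 1.42-fold, the epithelial NADPH oxidase NOX1 1.96-fold, and its subunit CYBA 1.19-fold, the call for CYBA being lost without WT replicate 1 (adjusted p = 0.0899), CBS KO replicate 1 (adjusted p = 0.072) or CBS KO replicate 2 (adjusted p = 0.0639).

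The list for phosphatidylserine, the lipid bound by ANXA5, holds genes for its outward exposure and for ligands that bind it there. Of its 13 genes 6 rose and 5 fell (median -0.08). With log2(TPM + 1) 0 were called higher and 9 lower, the latter near the 66.1% of all genes. The flippase ATP11B, the flippase subunit TMEM30A and the scramblase ANO6 rose 1.52-fold, 1.48-fold and 1.44-fold with TMM. Their log2 fold changes with log2(TPM + 1) were -0.060, -0.020 and -0.057, so the direction of these 3 is not settled. The flippases ATP8A1 and ATP11A fell 1.44-fold and 1.43-fold, and GAS6, a bridging ligand for phosphatidylserine, 1.32-fold.

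**Figure D5:**
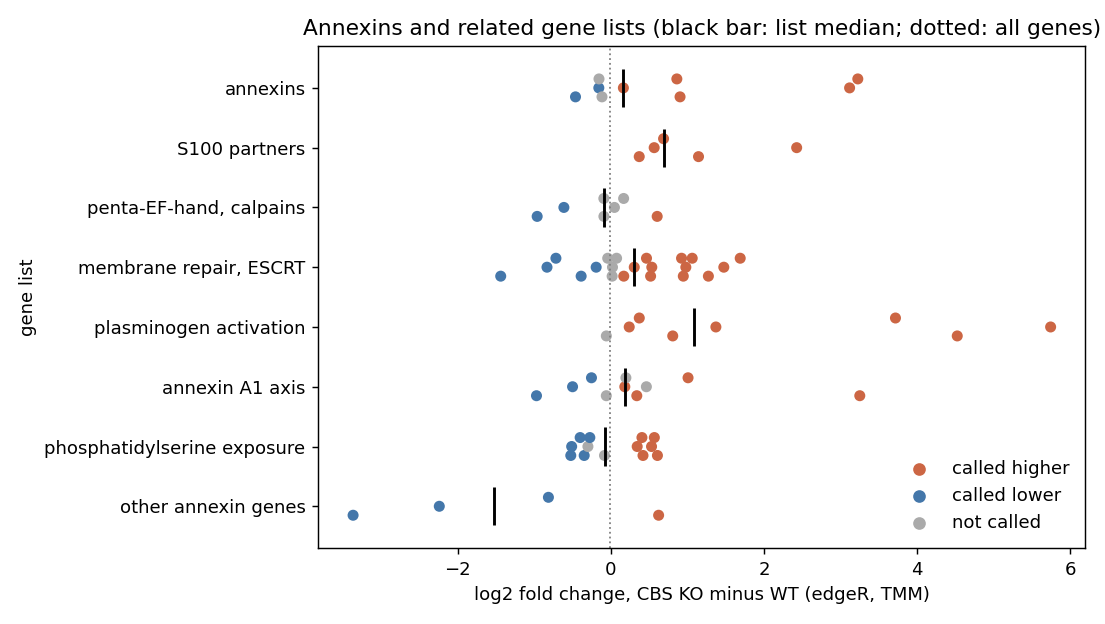
Log2 fold change (CBS KO minus WT, edgeR with TMM) of each tested gene in the annexin list and 7 related lists, coloured by call, with black bars for list medians and a dotted line for the median of all genes. Plasminogen activation genes and S100 partners have the highest medians, 1.09 and 0.69, and the 4 other annexin genes the lowest, -1.53.

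The genes closest in pattern to the extremes of the family were taken by Euclidean distance over 6 libraries, on log2(CPM + 1) values centred on the WT mean. Nearest to ANXA13 were the chemokine receptor CXCR4 (distance 0.362; 1.04 ± 0.0577 to 7.28 ± 1.07 CPM), the humanin-like gene MTRNR2L2 (0.402; 1142 ± 67.1 to 4789 ± 307 CPM) and the gasdermin GSDMB (0.403; 13.7 ± 1.33 to 56.4 ± 3.00 CPM). MTRNR2L2 resembles mitochondrial ribosomal RNA, and its reads may be shared with that transcript. Nearest to ANXA4 were JPH2 (distance 0.0664; 52.1 ± 4.06 to 37.5 ± 1.15 CPM), which encodes a junctophilin, DTX3 (0.0743) and C1orf115 (0.0787). The 1 CPM added on this scale is more than the WT mean of ANXA13 (0.567 CPM), and MTRNR2L2 and GSDMB had smaller edgeR log2 fold changes than ANXA13, 2.07 and 2.04 against 3.22.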

How the data were processed

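Poly(A) mRNA of 6 Caco-2 libraries, 3 WT and 3 CBS KO, was sequenced as strand-marked paired-end reads, per the labels' protocols. Tools listed in the submitters' processing notes, without roles, are HISAT2 2.2.1, cutadapt 1.9, edgeR, DESeq2 and StringTie 2.1.6, with the build GRCh38. The authors deposited estimated counts per gene (7.12 to 7.43% of values not whole), FPKM values and TPM values, per the file headers. How reads were assigned, and whether by strand, is not given in the sources used here.

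Counts were rounded and filtered with filterByExpr (13028 of 16781 genes kept), scaled by TMM and tested with edgeR's quasi-likelihood test (edgeR 4.0.16, limma 3.58.1, R 4.3.3), without covariates, with Benjamini-Hochberg adjustment over all genes tested. SEs come from the estimate and its F statistic. Alternatives were other scalings and filters, DESeq2 1.42.0, limma-trend on log2(FPKM + 1), log2(FPKM + 0.1) and log2(TPM + 1), a replicate block, and each library left out. On simulated counts with 200 of 12908 genes changed, the test recovered 76.1% of 1.5-fold, 91% of 2-fold and 100% of 4-fold changes. The simulation changed as many genes up as down and gave all genes the same dispersion. In the data 77.2% of genes tested were called, so these rates need not hold for this comparison.

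The members and gene lists were chosen with earlier results of these data known. Named are all annexins, CBS, all tested S100 partners and other annexin genes, up to 3 called genes per direction of each other list, and the 3 nearest genes at each extreme. Marker genes and SRI were named beside these. A gene that this rule names is not reported here. Sequences and positions come from RefSeq (GRCh38.p14) and shared windows from GENCODE 29 transcripts. Within groups no 2 libraries agreed within counting noise (chi-square per degree of freedom 1.97 or more). Intervals and floors cover counting error only.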

Additional observations from a re-analysis of the deposited data

How the results depend on the processing

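Of the 9 tested annexins, ANXA1, ANXA2, ANXA3, ANXA13 and ANXA4 kept direction and call under every alternative that tested them, while the calls of ANXA5, ANXA6, ANXA7 and ANXA11 changed with scaling or with 1 library. The library total, log2(FPKM + 1), log2(FPKM + 0.1) and log2(TPM + 1) gave 2966, 2832, 2814 and 1972 genes called higher against 4998 with TMM, and log2(TPM + 1) gave 8450 lower against 5062. The higher share of calls was 28.6, 28.7, 28.7 and 18.9% under these 4, against 49.7% with TMM. Annexins called lower numbered 5 under each of these 4, 4 with the upper quartile and without a filter, 1 with DESeq2, and 1 to 4 with a library left out, against 2 with TMM. All genes moved the same way. Called lower were 7403 of 13028 genes with the library total, 7030 of 12409 with log2(FPKM + 1) and 7005 of 12409 with log2(FPKM + 0.1). With log2(TPM + 1) 66.1% were, so 5 of 9 annexins is near the share of all genes. The upper quartile gave 5389 of 13028, no filter 5421 of 16758 and DESeq2 4673 of 13028. The cause of these shifts was not tested. Leaving out 1 library gave 4744 to 5028 genes called higher, 4818 to 5234 lower, and 4 to 5 annexins called higher.

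For ANXA5 the log2 fold change was 0.12 with the upper quartile and 0.12 without a filter, neither called (adjusted p = 0.0573 and 0.0643), and -0.19, -0.19, -0.19 and -0.42 with the library total, log2(FPKM + 1), log2(FPKM + 0.1) and log2(TPM + 1). ANXA6 was called lower with the upper quartile (-0.20), the library total (-0.51), no filter (-0.19), log2(FPKM + 1) (-0.50), log2(FPKM + 0.1) (-0.51) and log2(TPM + 1) (-0.73). ANXA11 was called lower under the same 6, at -0.16, -0.47, -0.15, -0.51, -0.52 and -0.74. ANXA7 was not called with DESeq2 (-0.14). With 1 library left out the log2 fold changes lay between 0.14 and 0.17 for ANXA5, -0.23 and -0.11 for ANXA6, -0.17 and -0.15 for ANXA7, and -0.18 and -0.093 for ANXA11.

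Among the other 40 named genes, 609 of 634 values kept direction and call, 18 lost the call and 7 turned. Those that turned were S100A10 (-0.020), S100A11 (-0.22), ADAM10 (-0.23), ATP11B (-0.060), TMEM30A (-0.020) and ANO6 (-0.057) with log2(TPM + 1) and ADAM10 (-0.014) with the library total. Same-numbered libraries of the groups did not deviate together (r of 0.0405, 0.0174 and 0.022), so the numbers were not taken as pairs. The replicate block gave 4986 genes higher and 5058 lower, 5 annexins higher and 2 lower, and changed the call of 0 of 49 named genes. Depth limits what can be said of ANXA10 and the formyl peptide receptors, at 1 count or fewer per group, and it limits the precision for ANXA13.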
